A study of Mus musculus with 15 samples.

Results

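The genes described here are 41 listed genes of the cell cycle and of DNA replication, out of 48795 genes in the deposited tables, and all 41 were found by their symbols. They were measured by RNAseq in sorted invariant natural killer T (iNKT) cells, which are T cells that recognise lipids presented on CD1d. The cells came from thymus, spleen, mesenteric lymph node (mLN) and inguinal lymph node (iLN) of wild-type C57BL/6 mice aged 6 weeks, all untreated, and were positive for TCRβ and for a CD1d tetramer loaded with the lipid PBS57, and negative for B220, CD11b, CD11c and CD8. The 15 libraries comprised 4 replicates of each tissue apart from iLN, of which 3 were used (replicates 2 to 4), since iLN replicate 1 was not analysed here. The labels place replicates 3 and 4 in batch First (8 libraries) and replicates 1 and 2 in batch Second (7 libraries). Only the lymph nodes (LNs) received a brief enzyme digestion, the other organs being mashed mechanically, so tissue and digestion cannot be told apart in any comparison of LNs with spleen or thymus. Whether a replicate stands for 1 mouse or for pooled mice is not stated. The labels give the libraries of different tissues a shared unit name, WT1 to WT4, which is the replicate number, and do not say what it stands for. The study used a paired t-test for the frequencies of TCR sequences in its RNAseq samples, without stating what was paired. Its model of gene expression held tissue and sample batch. Pairing was not assumed here, and p-values measure the spread between these samples, which may be technical in part.

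A T cell that leaves rest first raises D-type cyclins, which pair with CDK4 and CDK6 and release E2F transcription factors, and these in turn switch on the genes for DNA replication and nucleotide supply. The MCM helicase is loaded at origins by CDC6 and CDT1, PCNA clamps the polymerase to DNA, and the CDK inhibitors p21 and p27 hold the kinases back. Genes of G2 and mitosis, such as those of cyclin B, the Aurora kinases, the kinesins and the kinetochore, are transcribed late in the cycle, so in a resting population their RNA comes mainly from the few cells in division. Most mature iNKT cells of an unchallenged mouse are resting. In RNA from bulk sorted cells, fewer cells in cycle and less RNA per cycling cell cannot be told apart.

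The libraries held between 1152702 expected counts (thymus replicate 2) and 8670570 (spleen replicate 1), and the next lowest after thymus replicate 2 held 4080550. The summed level of 8 genes expressed in iNKT cells was between 4555 and 8264 TPM (a level scaled for transcript length and library size) in every library, and none of them was at 0 throughout. The genes were Cd3e, Cd3d, Trbc1, Trbc2, Zbtb16, Trav11, Tbx21 and Il2rb. They include genes of T cells in general, so the sum does not by itself tell iNKT cells from other T cells. Genes of other cells were also present. The summed level of 7 B cell genes was 141 to 343 TPM in spleen and 92.7 to 217 TPM in the other tissues, that of 8 myeloid genes reached 90.2 TPM in spleen replicate 1 and was at most 19.2 TPM elsewhere, and that of 7 genes of immature thymocytes was 5.30 to 46.97 TPM in thymus, highest in replicate 2, against at most 12.8 TPM elsewhere. The summed level of 6 red cell genes was 68.0 to 341 TPM in spleen and at most 66.0 TPM elsewhere. For 10 genes listed beforehand under a response to tissue digestion, the sum was 146 to 317 TPM in LNs and 70.7 to 100.1 TPM in spleen and thymus. The list includes Fos and Fosb, which the study counts among genes of T cell activation or TCR signalling, so the name of the list does not give the source of the difference. The 7 genes that mark the NKT2 and NKT17 subsets summed to 218 to 417 TPM in iLN, highest in replicate 4, and to 71.7 to 174 TPM in the other tissues. Their part in the results was not tested.

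The members that act early in the cycle had the highest levels. Ccnd2, which encodes cyclin D2, was the highest at a mean of 168 TPM over the 15 libraries (rank 481 of all genes), followed by Pcna at 117 TPM, Ccnd3 (cyclin D3) at 108 TPM, Cdk4 at 65.4 TPM and Mcm6 at 52.1 TPM. These 5 were the only members over 50 TPM, 11 members lay between 10 and 50 TPM, and 25 were below 10 TPM, of which 19 were below 5 TPM. All 17 genes of the groups for G2 and mitotic kinases and cyclins (7 genes) and for spindle, kinetochore and chromosomes (10 genes) were below 10 TPM, from Top2a at 7.51 TPM down to Cdc20, an activator of the anaphase-promoting complex, at 0.981 TPM. Together the 17 genes made up 2.30% (thymus replicate 3) to 12.8% (iLN replicate 4) of the summed TPM of the 41 members, while Ccnd2 alone made up 17.3% to 24.2%. A count of 0 was seen in at least 1 library for 16 members, and 21 members had at least 10 counts in every library.

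**Figure D1:**
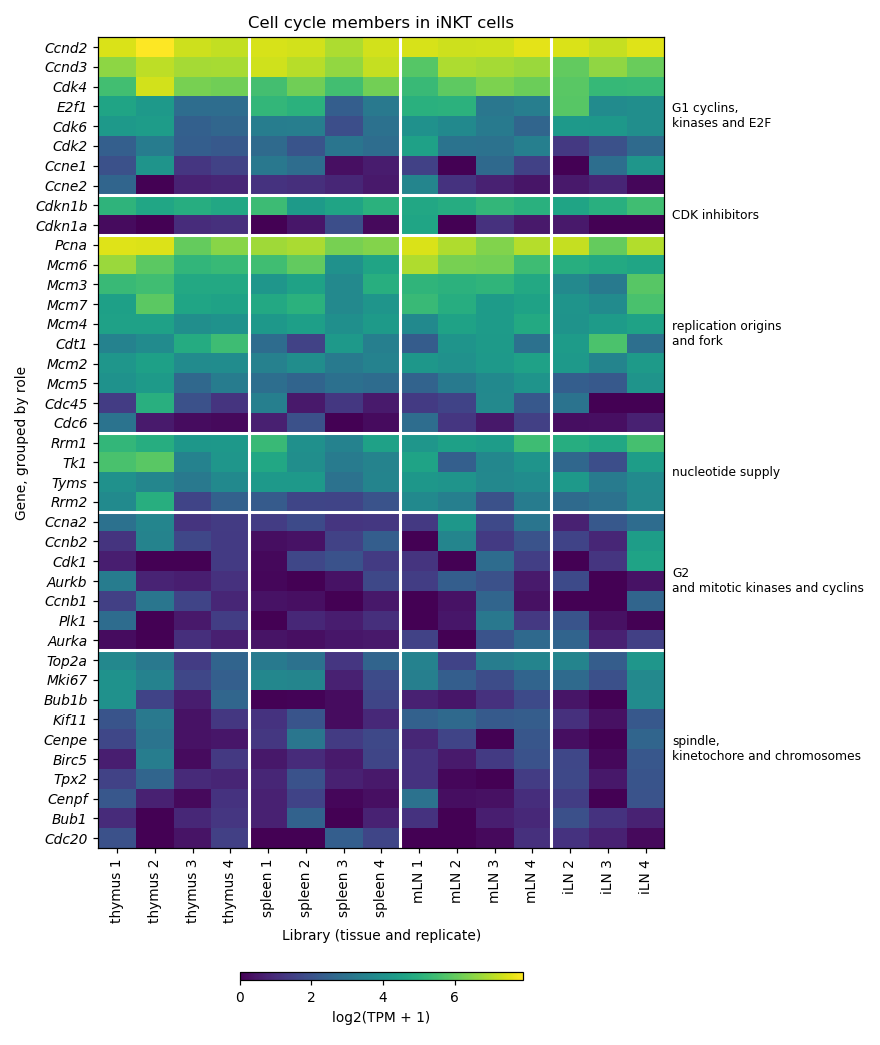
Level of the 41 members, as log2(TPM + 1) in colour, in each of the 15 libraries (columns, by tissue and replicate), with genes (rows) grouped by role and ordered by mean level within a group. Ccnd2, Ccnd3, Cdk4 and Pcna are bright in every library, and the G2, mitotic and spindle genes are dark in most, with iLN replicate 4 and thymus replicates 1 and 2 brighter than their neighbours for several of them.

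Levels between tissues were compared in CPM (counts scaled to the library total, with TMM factors), and the values below are in the order of replicates 1 to 4, with replicates 2 to 4 for iLN. A member was called where edgeR's quasi-likelihood test, in a model of tissue and batch fitted on 13600 genes, gave an adjusted p-value (Benjamini-Hochberg, over all genes tested) under 0.01 and a fold change over 1.5. Of the 41 members, 38 passed the filter on low counts and were tested, and Bub1, Cdk1 and Cdkn1a did not.

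The 8 genes of the G1 group were led by Ccnd2, which encodes a D-type cyclin of lymphocytes. Of the 8, 5 had a positive log2 difference for thymus against spleen, 4 for mLN and 5 for iLN. Ccnd2 was at 819, 898, 856 and 744 CPM in thymus, 635, 663, 754 and 756 in spleen, 616, 652, 739 and 762 in mLN and 727, 851 and 740.3 in iLN. The 4 tissues overlapped, and no member had narrower intervals. Thymus was higher than spleen by 0.25 on the log2 scale (95% interval 0.01 to 0.48, edgeR adjusted p = 0.432), and the interval for mLN against spleen was -0.26 to 0.22. Cdk4, which encodes the kinase that cyclin D binds, was at 44.5, 72.8, 75.2 and 67.7 CPM in thymus, 40.1, 51.2, 63.5 and 73.0 in spleen, 35.1, 57.9, 51.8 and 70.3 in mLN and 52.8, 62.0 and 41.0 in iLN, with no tissue apart from the others. Its log2 difference between iLN and spleen was -0.16 (95% interval -0.69 to 0.38).

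Ccnd3 (chromosome 17, 47505051 to 47599691, plus strand, GRCm38) encodes the other D-type cyclin of T cells. It was at 124, 130.1, 199.7 and 185 CPM in thymus, 157, 154, 201 and 210.5 in spleen, 87.1, 138, 137 and 135 in mLN and 78.6, 169.9 and 73.7 in iLN. All 4 mLN libraries lay below all 4 spleen libraries, whereas in iLN replicates 2 and 4 were the lowest of the 15 libraries and replicate 3 lay within the range of spleen. This holds in CPM. In TPM, mLN, at 55.09 to 120.2, overlapped spleen, at 98.51 to 159.4, and every iLN library, at 63.15 to 96.0, lay below spleen. The lowest of the 15 libraries in TPM was mLN replicate 1. The log2 difference was -0.84 ± 0.23 (SE) for iLN against spleen (edgeR adjusted p = 0.0421), -0.53 ± 0.20 for mLN against spleen (edgeR adjusted p = 0.262) and -0.59 ± 0.15 for LNs against spleen and thymus (edgeR adjusted p = 0.0328), and none of these passed the threshold of 0.01. Within the batches, the value for LNs against spleen and thymus was -0.64 in First and -0.58 in Second. Without iLN replicate 3, iLN against spleen was -1.22 and passed (edgeR adjusted p = 0.00276), and without iLN replicate 4 it was -0.62 (edgeR adjusted p = 0.136). Exons of Ccnd3 share 361 bases with those of Bysl on the opposite strand, and the strand setting of the counting is not given in the sources used here, so reads there cannot be assigned to either gene with certainty. The same holds for Cdk4 (641 bases shared with Tspan31), Ccne2 (609 with Ints8), Ccna2 (510 with Exosc9), Ccnd2 (372 with Gm43126) and Cdk6 (368 with Gm17590).

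Cdk6 (chromosome 5, 3341485 to 3531008, plus strand) encodes the second G1 kinase partner of the D-type cyclins. It was at 160.1, 139, 50.4 and 51.8 CPM in thymus, 66.0, 55.3, 35.4 and 58.6 in spleen, 131, 106, 72.2 and 36.02 in mLN and 144, 94.0 and 107 in iLN. Every iLN library exceeded every spleen library, and within thymus and mLN the replicates 1 and 2 of batch Second exceeded replicates 3 and 4 of batch First. In the model with batch, iLN was higher than spleen by 1.23 ± 0.28 on the log2 scale (2.35-fold, edgeR adjusted p = 0.014), and the values within the batches were 1.08 in First and 1.23 in Second. Thymus against spleen was 0.73 (95% interval 0.18 to 1.27, edgeR adjusted p = 0.224), with 0.11 in batch First and 1.29 in batch Second. Leaving out spleen replicate 4, the iLN difference was 1.54 and passed the threshold (edgeR adjusted p = 0.00597).

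E2f1 (chromosome 2, 154559407 to 154569892, minus strand) encodes the transcription factor that the D-type cyclin kinases release. It was at 46.8, 29.4, 15.7 and 14.2 CPM in thymus, 59.3, 58.2, 11.96 and 17.1 in spleen, 64.3, 63.3, 15.8 and 17.9 in mLN and 103, 34.1 and 24.5 in iLN. In each tissue the libraries of batch Second lay above those of batch First, and iLN replicate 2, the only iLN library of batch Second, was the highest of all. Against thymus, iLN was higher by 1.18 ± 0.26 on the log2 scale (2.26-fold, edgeR adjusted p = 0.0138), with 0.96 in batch First and 1.40 in batch Second. LNs exceeded spleen and thymus by 0.67 ± 0.18 (edgeR adjusted p = 0.0361), with 0.58 in First and 0.76 in Second. The LNs were not alike in this. In First and Second, mLN differed by 0.20 and 0.11 from spleen and by 0.17 and 0.72 from thymus, while iLN exceeded mLN by 0.79 and 0.68. Cyclin E, which drives entry into S phase, was low, and its genes Ccne1 and Ccne2 had medians of 8 and 7 counts per library, and their intervals for iLN against spleen reached more than 2 on the log2 scale in either direction. The kinase partner of cyclin E, Cdk2, was at 6.91, 11.8, 8.81 and 7.21 CPM in thymus, 7.60, 4.81, 18.2 and 10.98 in spleen, 38.5, 11.2, 11.9 and 15.2 in mLN and 2.33, 6.50 and 8.04 in iLN, so that mLN, highest in replicate 1, lay above iLN in every library, with a log2 difference of -1.92 for iLN against mLN (edgeR adjusted p = 0.143), the lowest p of any member in that comparison.

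**Figure D2:**
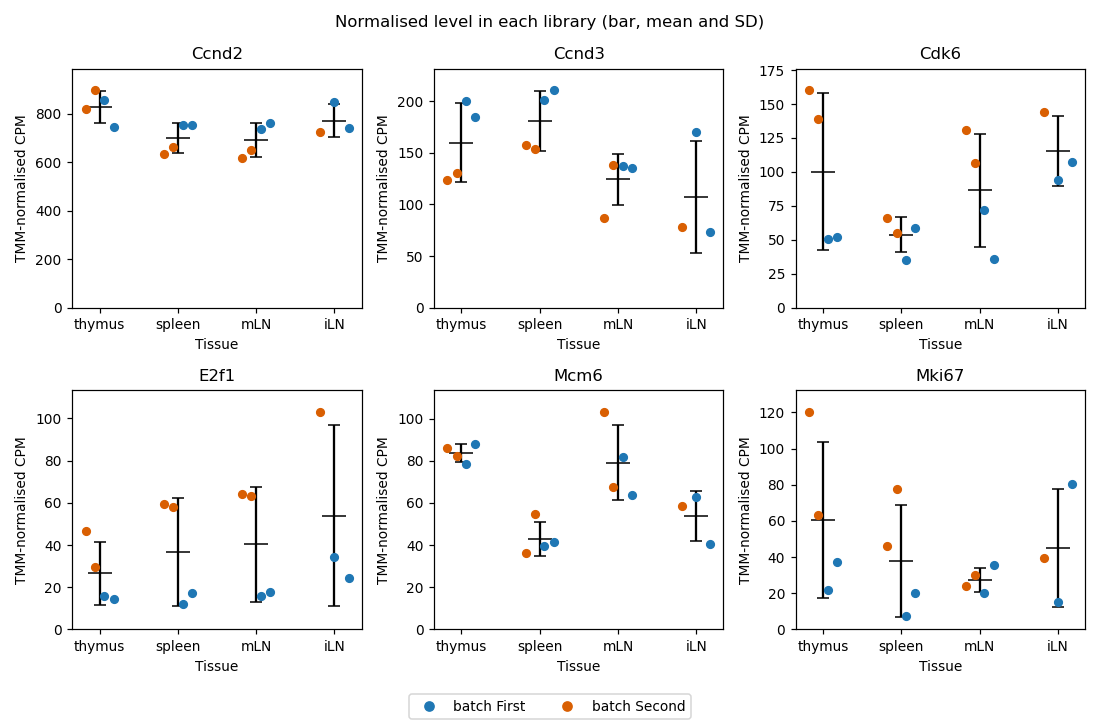
TMM-normalised CPM of 6 members in each library by tissue, one point per library coloured by batch, with the mean and SD of each tissue as a bar. E2f1 and Cdk6 split by batch within thymus and mLN, Mcm6 is lower in spleen than in thymus and mLN, and the Mki67 libraries of batch Second lie above those of batch First in thymus and spleen but not in the LNs.

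The levels of the 2 CDK inhibitors lay far apart, at a mean of 30.02 TPM for Cdkn1b and 2.12 TPM for Cdkn1a. Cdkn1b, which encodes p27 and is high in resting T cells, was at 108, 54.4, 97.8 and 72.3 CPM in thymus, 113, 50.5, 102 and 82.4 in spleen, 74.3, 85.0, 89.7 and 67.8 in mLN and 64.8, 91.8 and 65.5 in iLN. Its ranges overlapped in all tissues, and the log2 difference was -0.26 (95% interval -0.82 to 0.31) for iLN and -0.13 (95% interval -0.65 to 0.38) for mLN against spleen. Cdkn1a, which encodes p21, a target of p53, was almost absent, with 2, 0, 2 and 3 counts in thymus, 0, 1, 7 and 1 in spleen, 92, 0, 3 and 3 in mLN and 1, 0 and 0 in iLN. Only mLN replicate 1 had more than 7 counts, and a count of 0 allows up to 0.346 to 2.60 CPM at the depths of these libraries (3 counts, counting error only).

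Among the 10 genes of replication origins and the fork, the summed level was lowest in spleen. The sum was 496, 461, 356 and 393 CPM in thymus, 252, 302, 327 and 282 in spleen, 419, 374, 375 and 397 in mLN and 352, 313 and 375 in iLN, so that each thymus and mLN library exceeded every spleen library, and iLN overlapped spleen in its lowest library. In summed TPM, thymus, at 215 to 449, overlapped spleen, at 165 to 283, while mLN, at 293 to 420, did not. All 10 had a positive log2 difference both for thymus against spleen (median 0.67) and for mLN against spleen (median 0.46), and 9 of 10 for iLN against spleen (median 0.17). These comparisons share the spleen libraries.

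Mcm6 (chromosome 1, 128331590 to 128359664, minus strand), which encodes a subunit of the MCM helicase, showed this pattern most clearly. It was at 86.1, 82.3, 78.2 and 87.8 CPM in thymus, 36.1, 54.5, 39.6 and 41.5 in spleen, 103, 67.3, 81.8 and 64.0 in mLN and 58.5, 62.9 and 40.4 in iLN. All thymus and all mLN libraries lay above all spleen libraries, and all iLN libraries below all thymus libraries. This holds in CPM. In TPM, Mcm6 was at 104, 59.5, 36.3 and 39.6 TPM in thymus, 43.9, 63.2, 15.1 and 23.7 in spleen, 123, 76.2, 74.2 and 42.5 in mLN and 29.99, 27.2 and 24.0 in iLN, so that thymus and mLN overlapped spleen and the iLN mean of 27.1 TPM lay below the spleen mean of 36.5 TPM. The log2 difference from spleen was 0.97 ± 0.21 for thymus (1.96-fold, edgeR adjusted p = 0.0125), 0.88 ± 0.21 for mLN (1.84-fold, edgeR adjusted p = 0.0384) and 0.35 ± 0.22 for iLN (edgeR adjusted p = 0.483). Within the batches, thymus against spleen was 1.02 in First and 0.89 in Second, and mLN against spleen was 0.83 and 0.91. The thymus difference passed the threshold without mLN replicate 1 (edgeR adjusted p = 0.00869) and without iLN replicate 4 (edgeR adjusted p = 0.00787), libraries of neither tissue compared.

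The other MCM subunits did not all share the pattern. Mcm2 was at 40.7, 40.4, 36.4 and 38.3 CPM in thymus, 20.7, 31.3, 22.7 and 26.9 in spleen, 24.4, 35.7, 45.1 and 50.9 in mLN and 41.99, 35.2 and 39.3 in iLN, and both thymus and iLN lay above spleen without overlap, with log2 differences of 0.62 and 0.60 (edgeR adjusted p = 0.336 and 0.273). Mcm4 differed from spleen by less than 0.1 in each tissue, with intervals within 1 on the log2 scale. Pcna, the sliding clamp, was at 186, 144, 83.7 and 104 CPM in thymus, 80.4, 109, 116 and 92.1 in spleen, 173, 123, 87.0 and 122 in mLN and 138, 82.4 and 110.3 in iLN. Its tissues overlapped, the highest value within thymus and within mLN being that of replicate 1, and the log2 difference from spleen was 0.32 for thymus (95% interval -0.13 to 0.77), 0.31 for mLN (95% interval -0.14 to 0.75) and 0.18 for iLN (95% interval -0.29 to 0.66). Mcm3, Mcm5 and Mcm7 encode further helicase subunits, and their log2 difference from spleen was between 0.34 and 1.05 in thymus, between 0.17 and 0.66 in mLN and between 0.01 and 0.30 in iLN, with edgeR adjusted p of at least 0.356. Cdc6, the other loading factor, exceeded 5 CPM only in thymus replicate 1, spleen replicate 2 and mLN replicate 1. The loading factor Cdt1 ran from 3.46 to 36.1 CPM, and Cdc45, a helicase cofactor whose exons overlap those of Ufd1 on the other strand, stood at 42 counts in thymus replicate 2 but at 0 in iLN replicates 3 and 4.

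Nucleotide supply held 4 genes. Rrm1, which encodes the large subunit of ribonucleotide reductase, was at 64.7, 59.5, 43.5 and 45.7 CPM in thymus, 43.2, 32.6, 41.4 and 51.7 in spleen, 51.2, 40.6, 45.98 and 68.2 in mLN and 55.6, 55.8 and 81.6 in iLN, and Rrm2, which encodes the small subunit that is made mainly in S phase, was at 19.0, 37.5, 4.13 and 7.02 CPM in thymus, 4.84, 3.01, 4.73 and 4.47 in spleen, 12.1, 14.5, 4.58 and 12.7 in mLN and 8.07, 13.8 and 16.6 in iLN. For both genes every iLN library exceeded every spleen library, and Rrm2 in spleen stayed between 3.01 and 4.84 CPM while thymus ran from 4.13 to 37.5 CPM. The log2 difference of Rrm2 was 1.75 ± 0.59 for thymus against spleen (edgeR adjusted p = 0.177) and 1.74 ± 0.61 for iLN against spleen (edgeR adjusted p = 0.133). Within the batches, thymus against spleen was 0.28 in First and 2.80 in Second, and iLN against spleen was 1.702 and 1.01. Tyms and Tk1, which make and salvage thymidine nucleotides, were below 48 and 26 CPM in every library. Tk1 was lower in LNs than in spleen and thymus by 0.99 on the log2 scale (95% interval 0.07 to 1.90 lower, edgeR adjusted p = 0.238).

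The G2 and mitotic kinases and cyclins were near the limit of detection. Their 7 genes summed to 29.7, 23.5, 9.92 and 12.5 CPM in thymus, 3.85, 7.96, 12.2 and 13.4 in spleen, 7.13, 44.1, 23.5 and 24.3 in mLN and 14.7, 10.6 and 43.8 in iLN. Spleen stayed at or below 13.4 CPM, while each other tissue had at least 1 library above all of spleen and at least 1 within its range. The highest sums were in mLN replicate 2 and iLN replicate 4, and in the latter the highest counts were those of Ccnb2 (107 counts), Ccna2 (66 counts), Cdk1 (36 counts) and Ccnb1 (33 counts), which encode cyclins B2, A2 and B1 and the kinase they bind. iLN replicate 4 was also the library with the highest NKT2 and NKT17 sum, and the part of this in the result was not tested. All 6 tested genes had a positive log2 difference from spleen in each tissue (median 1.41 in thymus, 1.52 in mLN and 1.35 in iLN). With a library left out, the summed TPM of the group in iLN was 1.40 to 4.93 times that in spleen, the lowest without iLN replicate 4. Within the batches signs turned for Ccna2 in iLN against spleen (1.30 in First, -1.52 in Second) and for Aurka in thymus against spleen (0.73 in First, -0.10 in Second). Ccnb2 shares sequence with the copy Ccnb2-ps, which held 257 counts over all libraries, so its counts are uncertain.

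Ccna2, which encodes cyclin A2 and was the highest of the group, was at 10.6, 9.56, 3.58 and 3.98 CPM in thymus, 2.86, 4.36, 4.24 and 3.25 in spleen, 1.81, 27.0, 5.20 and 13.5 in mLN and 1.26, 7.32 and 11.3 in iLN. Only in mLN replicate 2 did it exceed 14 CPM. The kinase genes Plk1 and Aurkb, which act in mitotic entry and in chromosome segregation, were both highest in thymus replicate 1, at 76 and 58 counts, and Plk1 was at 0 counts in 4 libraries. Aurka, which encodes the kinase Aurora A of the spindle poles, had 2, 0, 5 and 5 counts in thymus, 1, 2, 3 and 3 in spleen, 20, 0, 17 and 27 in mLN and 32, 4 and 12 in iLN. It was detected at more than 5 counts only in LN libraries, yet mLN replicate 2 had 0 counts. The log2 difference between LNs and spleen and thymus was 2.59, with a 95% interval of 0.82 to 4.36 (edgeR adjusted p = 0.096), and leaving out each library in turn gave values from 1.64 to 2.93.

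The 10 spindle, kinetochore and chromosome genes summed to 219, 170.5, 40.8 and 80.6 CPM in thymus, 91.7, 158, 28.4 and 49.02 in spleen, 93.6, 73.3, 73.9 and 104 in mLN and 84.5, 40.9 and 180.4 in iLN. The highest library exceeded the lowest several-fold within thymus, spleen and iLN, and less so within mLN, and in thymus and spleen both libraries of batch Second exceeded both of batch First. Of the 9 tested, 9 had a positive log2 difference for thymus against spleen, 6 for mLN and 7 for iLN. Kif11, a kinesin that pushes spindle poles apart, was at 11.48, 23.5, 1.38 and 6.07 CPM in thymus, 3.65, 10.4, 0.997 and 3.25 in spleen, 16.6, 19.1, 13.7 and 14.1 in mLN and 3.77, 1.35 and 10.9 in iLN, so that mLN lay above spleen and above iLN without overlap. Its log2 difference for mLN against spleen was 1.99 ± 0.70 (95% interval 0.52 to 3.47, edgeR adjusted p = 0.214). Top2a, the topoisomerase that disentangles chromosomes, was at 34.9, 24.3, 6.89 and 16.9 CPM in thymus, 27.1, 22.8, 7.47 and 12.2 in spleen, 34.6, 7.25, 31.4 and 26.0 in mLN and 19.4, 20.3 and 53.2 in iLN, and the tissues overlapped throughout.

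Of the other genes of this group, Bub1b, which encodes a spindle checkpoint kinase, had the highest log2 difference for thymus against spleen, at 3.29 (95% interval 0.79 to 5.78, edgeR adjusted p = 0.23), with 0.0987 to 2.03 CPM in spleen and 1.93 to 9.13 CPM in thymus. The kinetochore gene Cenpf was higher in iLN than in spleen by 1.96 (95% interval 0.07 to 3.84, edgeR adjusted p = 0.282), yet iLN held both 0.271 and 13.5 CPM. The intervals of Birc5, Cenpe, Tpx2 and Cdc20 included 0 against spleen in each tissue. Bub1 had 55 counts in spleen replicate 2 and at most 20 in the other libraries.

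Mki67 (chromosome 7, 135689784 to 135716361, minus strand) encodes Ki-67, the protein most used to mark cells in cycle. It was at 120.2, 63.2, 22.0 and 37.4 CPM in thymus, 46.2, 77.8, 7.47 and 20.3 in spleen, 23.9, 30.3, 20.2 and 35.5 in mLN and 39.6, 15.2 and 80.2 in iLN. The highest library was from thymus and the lowest from spleen, and the mLN libraries lay within the range of spleen. The log2 difference between LNs and spleen and thymus was -0.07 ± 0.41, with a 95% interval of -0.94 to 0.79 (edgeR adjusted p = 0.957), and that between iLN and spleen was 0.75, with a 95% interval of -0.48 to 1.98 (edgeR adjusted p = 0.589). These are RNA levels. By flow cytometry, the study found more Ki-67 protein and more EdU incorporation, its measures of proliferation, in iNKT cells of LNs than of spleen or thymus. Those measures were not compared with RNA here.

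The sign of the Mki67 difference was not the same in both batches. In batch First, LNs exceeded spleen and thymus by 0.83 ± 0.48 on the log2 scale (edgeR adjusted p = 0.418), and in batch Second they were lower, at -1.22 ± 0.36 (edgeR adjusted p = 0.273). For iLN against spleen the values were 1.76 in First and -0.66 in Second, and for mLN against spleen 0.97 and -1.20. Without iLN replicate 4, iLN against spleen was -0.36. iLN has 1 library in batch Second, which is assumed there to vary like those of the other tissues. The difference between the batches was not tested.

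**Figure D3:**
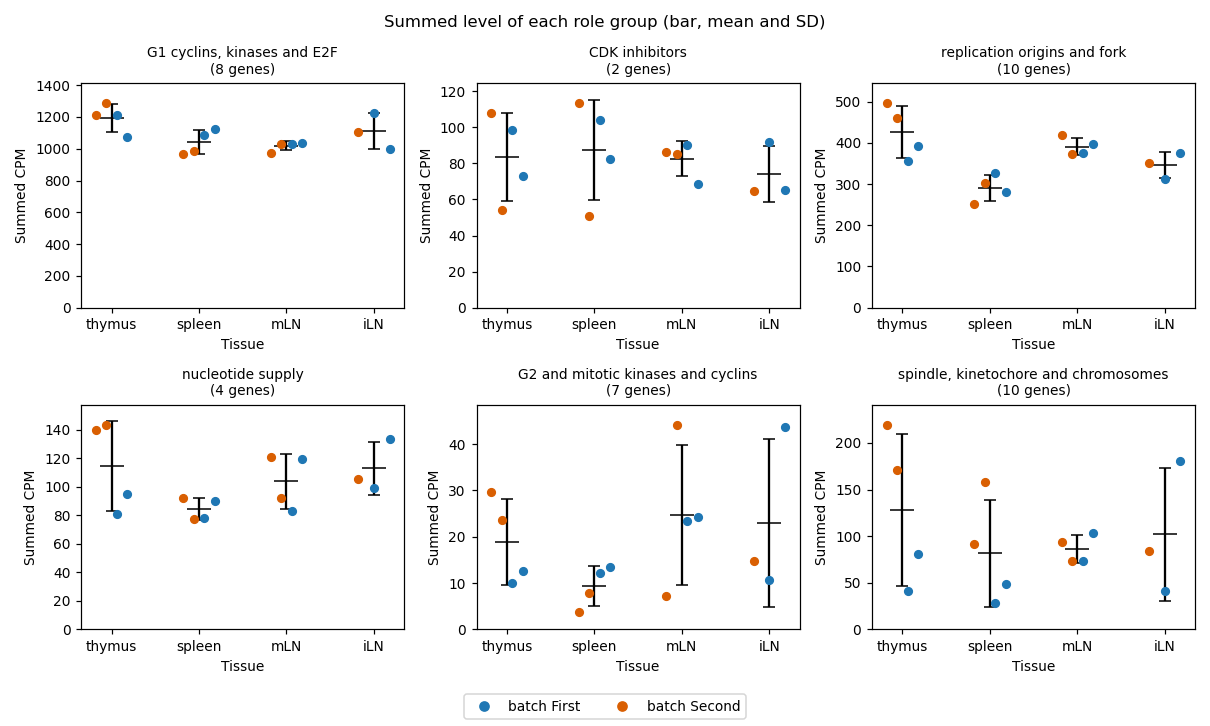
Summed TMM-normalised CPM of the members of each role group in each library by tissue, coloured by batch, with the mean and SD of each tissue. The replication sum of spleen (252 to 327 CPM) lies below thymus and mLN, while the mitotic and spindle sums vary within tissues as much as between them.

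No member was called in any of the 8 comparisons with edgeR. Over all genes tested, 1.32% were called for thymus against spleen, 0.654% for mLN against spleen, 1.55% for iLN against spleen, 1.6% for mLN against thymus, 1.5% for iLN against thymus, 0.471% for iLN against mLN, 1.72% for LNs against spleen and thymus, and 3.38% in the test over the 4 tissues together (adjusted p-value alone). At these shares fewer than 2 of 38 genes would be called in any of them, so 0 members is near the background. At an unadjusted p under 0.05, the members past it were 8 (all higher in thymus) for thymus against spleen, where 10.6% of all genes passed, 9 (8 higher in mLN) for mLN against spleen, with 12.2% of all genes, and 8 (7 higher in iLN) for iLN against spleen, with 16.4%. The counts were 3, 5 and 5 for mLN against thymus, iLN against thymus and iLN against mLN, where 13.5%, 16.5% and 13.8% of all genes passed, 5 for LNs against spleen and thymus (17.6%), and 7 over the 4 tissues (19.4%).

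DESeq2, the tool the study used, called Mcm6 for thymus against spleen (2.85% of all genes) and for mLN against spleen (1.82%), Cdk6 for iLN against spleen (4.09%), and E2f1 for iLN against thymus (3.47%) and for LNs against spleen and thymus (3.52%). It called these 3 genes over the 4 tissues (7.37%), and no member for mLN against thymus (3.04%) or iLN against mLN (2.03%). With edgeR at an adjusted p under 0.05, Mcm6 passed for thymus against spleen (2.6% of all genes) and mLN against spleen (1.37%; edgeR adjusted p = 0.0566 with a replicate block), Cdk6 and Ccnd3 for iLN against spleen (3.9%), E2f1 for iLN against thymus (3.44%), and Ccnd3 and E2f1 for LNs against spleen and thymus (4.26%). Cdk6, E2f1 and Mcm6 passed over the 4 tissues (6.57%), and no member for mLN against thymus (2.85%) or iLN against mLN (1.35%). The passes of Ccnd3 depended on the setting. With no batch term its edgeR adjusted p was 0.207 for iLN against spleen and 0.152 for LNs. With limma on log2(TPM + 1) the limma adjusted p was 0.189 and 0.177. With a library left out, its edgeR adjusted p ran from 0.00276 to 0.158 for iLN against spleen and from 0.00178 to 0.0831 for LNs, above 0.05 in most cases.

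The members leaned towards lower values in spleen. For thymus against spleen 33 of 38 had a positive log2 difference (median 0.74, all genes -0.01), for mLN against spleen 29 (median 0.31, all genes 0.00) and for iLN against spleen 30 (median 0.33, all genes 0.01). For LNs against spleen and thymus there were 22 (median 0.08, all genes 0.02). The thymus median was 0.45 without thymus replicate 2, the library of lowest depth, and 0.46 without thymus replicate 1, and it was 0.11 in batch First alone and 0.79 in batch Second alone. The iLN median was 0.03 without iLN replicate 4, 0.09 without spleen replicate 1, 0.53 without iLN replicate 3 and 0.58 without thymus replicate 1, and it was 0.55 in First and 0.14 in Second. The median for LNs was 0.29 in First and -0.24 in Second, and below 0 without iLN replicate 4 (-0.12), thymus replicate 3 (-0.02) or thymus replicate 4. Over the 21 members with at least 10 counts in every library, the medians against spleen were 0.31 for thymus, 0.19 for mLN and 0.15 for iLN. The members without overlap in CPM were Mcm2 and Mcm6 for thymus against spleen (8.56% of all genes did not overlap), Ccnd3, Kif11 and Mcm6 for mLN against spleen (6.2%), and Aurka, Cdk6, Mcm2, Rrm1 and Rrm2 for iLN against spleen (12.9%). For iLN against mLN they were Cdc6, Cdk2, Kif11 and Mcm6, all lower in iLN (8.48%), for iLN against thymus Mcm6 alone (13.3%), and for mLN against thymus there were 0 (8.05%).

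**Figure D4:**
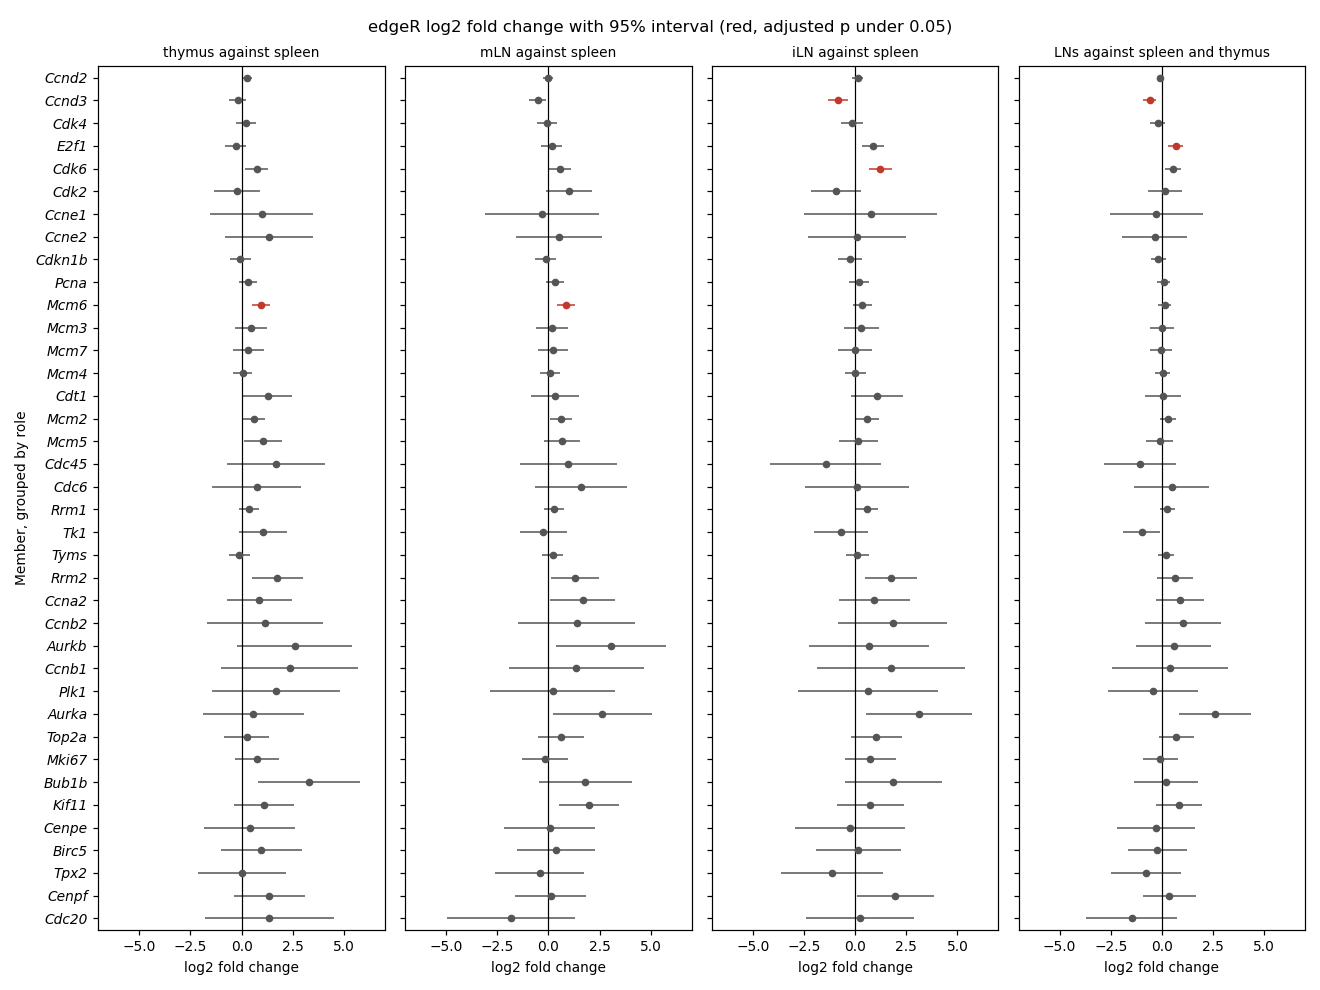
Log2 fold change with its 95% interval for the 38 tested members (rows, by role) in 4 comparisons, from the edgeR model of tissue and batch, with adjusted p under 0.05 in red. Most points of the 3 panels against spleen lie right of 0. The intervals are narrow for the MCM genes and for the G1 genes other than Ccne1, Ccne2 and Cdk2. Those of the mitotic genes span several log2 units.

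The precision of these comparisons depended on the gene. The biological coefficient of variation that edgeR estimated had a median of 0.252 in the G1 group, 0.358 for replication origins and fork, 0.772 for the spindle group and 1.02 for the G2 and mitotic group, against 0.426 over all genes tested. The widest interval for iLN against spleen had a half-width of 3.62 on the log2 scale and the narrowest, that of Ccnd2, 0.26. For LNs against spleen and thymus the interval lay within 1 on the log2 scale in both directions for 17 of 38 members, and within a fold of 1.5 for 6. Mki67 was among the former, as the only gene of the G2, mitotic and spindle groups. Its interval assumes the same difference in each batch. The Mki67 values within the batches, 0.83 in First and -1.22 in Second, both lay outside that interval, so it does not bound the difference in either batch. Of the 21 members outside these limits, 4 (E2f1, Rrm2, Tk1 and Top2a) had a half-width under 1 and lay outside through their estimate, and the other 17 had a half-width of 1 or more.

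**Figure D5:**
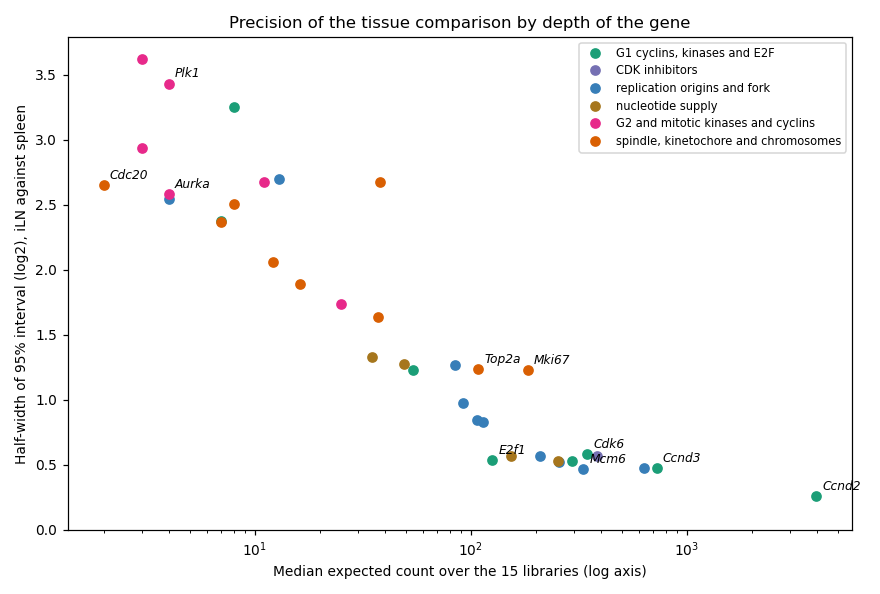
Half-width of the 95% interval of the log2 fold change for iLN against spleen, against the median expected count over the 15 libraries (log axis), one point per tested member coloured by role group. The half-width falls from above 2 at fewer than 10 counts to 0.26 for Ccnd2, and Mki67 and Top2a lie above genes of like depth such as E2f1.

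Between the batches 2 members were called. Compared across all tissues, batch Second exceeded batch First by 1.78 ± 0.18 on the log2 scale for E2f1 (3.44-fold, edgeR adjusted p = 9.31e-06) and by 0.93 ± 0.19 for Cdk6 (1.90-fold, edgeR adjusted p = 0.00464), where 3.82% of all genes were called. DESeq2 also called 2 members (7.18% of all genes), 7 members were at an unadjusted p under 0.05 (25.0%), 2 at an adjusted p under 0.05 (10.6%), and none separated the batches without overlap in CPM (1.93%). The same 2 genes are among those with the lowest p-values between tissues, and iLN has only 1 library in batch Second. Mki67 was higher in batch Second by 0.99 ± 0.41 (edgeR adjusted p = 0.133), and Pcna by 0.42 ± 0.16 (edgeR adjusted p = 0.0964). The labels give no further account of the batches.

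Of 132 other genes of the pathway, 118 were tested, and 2, 0, 0, 3, 2, 0 and 0 were called for thymus, mLN and iLN against spleen, mLN and iLN against thymus, iLN against mLN, and LNs against spleen and thymus, in that order. Over all genes tested, the shares called were 1.32%, 0.654%, 1.55%, 1.6%, 1.5%, 0.471% and 1.72%, so these counts are near the background. In the comparisons with 0 calls, 10, 6, 10 and 12 genes had an unadjusted p under 0.05. Over all genes the shares were 12.2%, 16.4%, 13.8% and 17.6%, larger than among the 118 in each case. DESeq2 called 1, 0, 0 and 2 there, where it called 1.82%, 4.09%, 2.03% and 3.52% of all genes. The 4 called genes were from the lists of other G1 regulators and of quiescence genes. Rbl2, which encodes p130, a pocket protein of the RB family that represses E2F targets in resting cells, was at 245, 229, 247 and 241 CPM in thymus, 594, 616, 545 and 595 in spleen, 397, 394, 422 and 431 in mLN and 455, 456 and 656 in iLN. The 4 thymus libraries were the lowest of all 15 and close to each other, mLN was intermediate, and spleen and iLN overlapped. Rbl2 fell by 1.29 on the log2 scale from spleen to thymus (edgeR adjusted p = 3.22e-06), and was higher in mLN than in thymus by 0.77 (edgeR adjusted p = 0.00118) and in iLN by 1.11 (edgeR adjusted p = 8.4e-05).

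Myc, the transcription factor that drives growth and entry into the cycle, was at 119, 95.6, 103 and 109 CPM in thymus, 23.6, 52.9, 40.4 and 54.1 in spleen, 31.2, 55.3, 48.5 and 69.7 in mLN and 46.6, 87.2 and 55.8 in iLN. Every thymus library exceeded every other library. Myc was higher in thymus than in spleen by 1.34 ± 0.27 on the log2 scale (edgeR adjusted p = 0.0071), a call that was lost without each thymus library and without spleen replicate 1, 3 or 4 or mLN replicate 3 (edgeR adjusted p = 0.0103 to 0.0408, log2 1.15 to 1.42). Foxo1, a transcription factor of quiescence and homing, was at 141, 164, 93.9 and 109 CPM in thymus, 206, 239.5, 170.4 and 196 in spleen, 327, 244, 223 and 204 in mLN and 284, 162 and 216 in iLN, higher than in thymus by 0.99 in mLN (edgeR adjusted p = 0.000462, 0.0185 with no batch term) and by 0.88 in iLN (edgeR adjusted p = 0.00314). The iLN call was lost without thymus replicate 1, 3 or 4 or iLN replicate 2 or 4 (edgeR adjusted p = 0.0127 to 0.0286, log2 0.78 to 0.89). Between LNs and spleen and thymus, Foxo1 differed by 0.58 (edgeR adjusted p = 0.00318), just below the limit on the fold change. Btg1, an antiproliferative gene of resting lymphocytes, was at 446, 387, 488 and 362 CPM in thymus, 495, 349, 621 and 524 in spleen, 801, 672, 822 and 667 in mLN and 396, 553 and 607 in iLN and was higher in mLN than in thymus by 0.82 (edgeR adjusted p = 0.00506), a call that was lost without thymus replicate 2, 3 or 4 or mLN replicate 1, 2 or 3 (edgeR adjusted p = 0.0154 to 0.0289, log2 0.71 to 0.85). With limma on log2(TPM + 1) the calls of Myc and Btg1 and both of Foxo1 were lost (limma adjusted p = 0.0566 to 0.153), as were those of Rbl2 in mLN (limma adjusted p = 0.0969) and iLN (limma adjusted p = 0.0361) against thymus. With no batch term, Myc (edgeR adjusted p = 0.0175), Btg1 (edgeR adjusted p = 0.0225) and Foxo1 in iLN (edgeR adjusted p = 0.0861) were lost too.

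In the remaining lists, those of other CDK inhibitors, p53 targets, other replication genes and other G2 and mitosis genes, edgeR called none, and DESeq2 called the 2 named below. In each list the 2 genes with the lowest p over the tissues were as follows. The CDK inhibitors Cdkn2d and Cdkn2c had edgeR adjusted p-values of 0.778 and 0.914 in the test over 4 tissues. The list of p53 targets includes Gadd45b, whose control by p53 was not tested. Gadd45b was at 0.37, 0, 0.551 and 0.759 CPM in thymus, 10.7, 0.902, 3.24 and 3.66 in spleen, 5.96, 2.90, 7.28 and 4.43 in mLN and 1.61, 2.71 and 0.855 in iLN, lowest in every thymus library (log2 -3.27 for thymus against spleen, edgeR adjusted p = 0.0678). These levels are near the limit of detection. The 0 in thymus replicate 2 allows up to 2.60 CPM (3 counts, counting error only), which is above 0.902 in spleen and 0.855 and 1.61 in iLN. For mLN against thymus Gadd45b was at 3.39 (edgeR adjusted p = 0.0495), which DESeq2 called (3.44, DESeq2 adjusted p = 0.00957). Sesn1 was lower in thymus than in spleen by 0.59 (edgeR adjusted p = 0.0992). The replication genes Wdhd1 and Gins2 were lower in iLN, Wdhd1 by 1.55 against thymus (edgeR adjusted p = 0.0726) and Gins2 by 1.14 against spleen (edgeR adjusted p = 0.108). Among G2 and mitosis genes, the tubulin gene Tubb5 was higher in LNs than in spleen and thymus by 0.49 (edgeR adjusted p = 0.0125) and the condensin gene Smc4 by 0.87 (edgeR adjusted p = 0.0305). Smc4 was called there by DESeq2 (0.89, DESeq2 adjusted p = 0.002) and by edgeR without the filter on low counts (edgeR adjusted p = 1.47e-05).

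Promoter sequences are shown for 6 members as a description. A relation of the elements before their start sites to level or spread was not tested. Each is the 120 bases before the gene's start (RefSeq, GRCm38.p6), 5′ to 3′ on the strand of the gene. Capitals mark 3 motifs on either strand, which are the CHR of late cell cycle genes (TTTGAA or TTCGAA), the CCAAT box (CCAAT) and an E2F motif (TTTCCCGC, TTTCGCGC, TTTGCCGC or TTTGGCGC), and the first pair of E2F matches in Mcm6 overlap each other.
Ccnd3 (chr17:47504931-47505050, plus strand): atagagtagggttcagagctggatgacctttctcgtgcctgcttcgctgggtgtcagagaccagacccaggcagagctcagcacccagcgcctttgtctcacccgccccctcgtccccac
Mcm6 (chr1:128359706-128359825, minus strand): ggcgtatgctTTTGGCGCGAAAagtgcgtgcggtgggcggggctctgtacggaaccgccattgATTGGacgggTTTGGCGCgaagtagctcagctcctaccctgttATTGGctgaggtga
Aurka (chr2:172370571-172370690, minus strand): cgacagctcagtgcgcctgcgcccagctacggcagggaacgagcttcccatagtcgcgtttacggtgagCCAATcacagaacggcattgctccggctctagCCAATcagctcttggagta
Top2a (chr11:99024190-99024309, minus strand): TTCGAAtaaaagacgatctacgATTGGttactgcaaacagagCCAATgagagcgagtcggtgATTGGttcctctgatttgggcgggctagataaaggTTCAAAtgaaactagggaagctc
Kif11 (chr19:37376262-37376381, plus strand): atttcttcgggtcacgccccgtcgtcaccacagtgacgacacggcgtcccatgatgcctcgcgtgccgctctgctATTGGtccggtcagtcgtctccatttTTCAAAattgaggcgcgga
Mki67 (chr7:135716380-135716499, minus strand): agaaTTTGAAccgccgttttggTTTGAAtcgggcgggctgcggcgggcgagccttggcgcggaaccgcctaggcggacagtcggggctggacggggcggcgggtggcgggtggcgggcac
The G1 gene Ccnd3 has none of the motifs in this stretch, Mcm6 has E2F and CCAAT, Aurka has CCAAT boxes, Top2a and Kif11 have CHR and CCAAT, and Mki67 has CHR.

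Windows from 250 bases before to 50 after the start were given for 35 of the 41 members. Only the 250 bases before the start were searched. A CHR was found in 7 of 14 members of the G2, mitotic and spindle groups, in 3 of 9 of the replication group and in 0 of 6 of the G1 group, against 19.6% of all 27025 genes with a window. A CCAAT box was found in 13 of the 14 and in 7 of the 9, against 37.5% of all genes, and both elements together in 28.6% of members and 7.93% of all genes. E2F motifs were found in 4 of 9 replication genes (44.4%), in 1 of the 14 and in 2.16% of all genes. E2f1, Cdk6 and Ccnd3, which came near the threshold between tissues, have no CHR or E2F motif in the bases searched, and Mcm6 has E2F motifs. The windows of Cdk6 and E2f1 lie inside the gene bounds given above, and the bases before those bounds were not searched. A match describes these letters and does not show a bound site.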

How the data were processed

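Per the labels and the study's methods, the authors sorted iNKT cells, made libraries with the NuGEN Ovation Ultralow kit, trimmed reads with cutadapt 1.7.1 and ran RSEM 1.2.31 with Bowtie2 2.2.9 on GRCm38. The deposited expected counts are RSEM's estimates of fragments per gene, the deposited TPM values are the same per length, and the deposited FPKM values were not used. Expected counts were rounded. edgeR 4.0.16 (limma 3.58.1, R 4.3.3) was fitted with tissue and batch after filterByExpr, TMM and robust quasi-likelihood estimation on all 15 libraries, with SE from the fit. The script was tested on simulated data. Alternatives were DESeq2 1.42.0, limma on log2(TPM + 1), other scaling and filters, other thresholds, each batch alone, a replicate block, and each library left out. The batch contrast and the sums without each library were added after the data were examined. Members, role groups and pathway lists were chosen with earlier results of these data known. Named genes were fixed as Mki67, Top2a, Ccnd2, Ccnd3, Cdk4, Cdk6, Cdkn1a, Cdkn1b, any member called, and per role group the member highest in TPM and that with the lowest p over the 4 tissues. Other members were named after their values were seen. Of other pathway genes, those called or, failing that, the 2 per list with the lowest p were named. Python 3.11.15, pandas 2.3.3, scipy 1.17.1 and matplotlib 3.10.9 made the summaries.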

Additional observations from a re-analysis of the deposited data

Results flagged for a closer look

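Of 66 sets of 4 libraries compared, 4 held a library far from its 3 replicates by Dixon's test at its 95% critical value, where chance gives about 1 in 20. Ccnd3 was at 87.1 CPM in mLN replicate 1 and at 135 to 138 CPM in the other mLN libraries. Cdkn1a was at 11.9 CPM (92 counts) in mLN replicate 1 and at 0 to 0.624 CPM in the others. Both values come from the same library, and a relation between these genes was not tested. Cdkn1a was at 1.74 CPM (7 counts) in spleen replicate 3 and at 0 to 0.203 CPM in the others. The summed TPM of the G1 group was 604.5 in thymus replicate 2, the library of lowest depth, and 350 to 368 in the other thymus libraries, while its summed CPM of 1286 lay beside 1073 to 1211.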

How the results depend on the processing

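Against 0 members called, DESeq2 called 1 for thymus, mLN and iLN against spleen, for iLN against thymus and for LNs, and 3 over the 4 tissues. Without the filter on low counts the calls were 2 (iLN against spleen, 2.24% of all genes), 1 (LNs, 2.19%) and 2 (4 tissues, 4.68%), and with at least 10 counts in every library 1 (iLN against spleen, 2.75%). At an adjusted p under 0.05 with no limit on the fold change they were 1, 1 and 2 for thymus, mLN and iLN against spleen, 1 for iLN against thymus, 2 for LNs and 3 over the 4 tissues. Leaving out each library gave 0 to 1 for thymus against spleen (0.846% to 1.65% of all genes), iLN against spleen (0.799% to 1.98%), iLN against thymus (0.768% to 1.75%) and LNs (1.17% to 1.89%), and 0 to 2 over the 4 tissues (2.41% to 3.65%). The count over the 4 tissues was 2 without iLN replicate 3 (Ccnd3 and Mcm6). The cause was not tested.

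With the replicate number as a block, 0 members were called in every comparison, and Mcm6 for mLN against spleen was above 0.05 (edgeR adjusted p = 0.0566). The mean correlation of deviations from the tissue means was 0.122 between libraries of the same number and 0.107 between others of the same batch, and the lowest pair was 0.00151, so the numbers were not taken to pair the samples. These correlations do not show that the samples are unpaired.

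Of 15 named members, 4, 4 and 6 had opposite signs in the batches for thymus, mLN and iLN against spleen, and 5 for LNs. Signs turned for Mki67 in LNs (0.83 in batch First alone, 0.091 with limma on TPM, -0.60 to 0.20 with a library left out) and in iLN against spleen (-0.66 in batch Second alone, -0.36 to 1.25 with a library left out), for Top2a in iLN against spleen (-0.38 in batch Second alone), Cdkn1b in iLN against spleen (0.16 with limma on TPM) and Pcna in thymus against spleen (-0.16 in batch First alone). The G1 sum in iLN over spleen was 0.896 in TPM and 1.07 in CPM. With a library left out, that ratio ran from 0.821 to 0.937, the G1 sum in mLN over spleen from 0.897 to 1.02, and nucleotide supply in mLN over spleen from 1.01 to 1.502. The G2 and mitotic group in iLN over spleen ran from 1.40 to 4.93. Besides the G1 sum in mLN, the ranges that crossed 1 were those of the spindle group in iLN (0.818 to 1.93) and mLN (0.936 to 1.46), nucleotide supply in iLN (0.973 to 1.57), the G1 group in thymus (0.935 to 1.16) and the CDK inhibitors in iLN (0.922 to 1.27) and thymus (0.878 to 1.13) over spleen. Low counts of the mitotic genes, the spread between libraries and 1 iLN library in batch Second limit all of these comparisons.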
